A study of Mus musculus with 4 samples.

Results

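The MEIS, PREP and TGIF genes form 3 small families of homeobox transcription factors, and 7 of them were followed here in thymic epithelial cells (TECs) of mice with an induced deletion of Meis1: Meis1, Meis2, Meis3, Pknox1 (also called Prep1), Pknox2 (Prep2), Tgif1 and Tgif2. They were taken by gene name, or by the current symbol of the RefSeq accession attached to a probe, and every probe of each gene was kept. This gave 12 of the 41174 probes on the array, for 7 of 21292 gene symbols. The samples were pools of CD45- EpCAM+ cells, each hybridised to its own array in the Cy3 channel. The 2 Meis1-CKO pools came from K14-CreERT2 Meis1 fl/fl mice and the 2 control pools, labelled WT, from K14-CreERT2 Meis1 fl/+ mice. All pools were of 6 mice, and every mouse, controls included, carried the recombinase and was injected at an age of 3 weeks with 1 mg tamoxifen a day for 3 days, with sorting 4 days after treatment. The controls carried 1 floxed Meis1 allele too, so the comparison is of 2 floxed alleles against 1. Expression of the recombinase depended on the keratin 14 promoter, whereas the sort took all EpCAM+ cells, and no source used here gives the share of sorted cells that recombined.

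All 7 proteins belong to the TALE class of homeodomain factors, whose homeodomain carries an extra loop of amino acids between its first and second helices. MEIS and PREP proteins bind PBX proteins through a conserved amino-terminal region, hold them in the nucleus and join them on DNA, often with a HOX protein as a further partner. TGIF proteins bind closely related DNA sites but lack the PBX-binding region and act mainly as repressors, recruiting histone deacetylases and limiting transcription driven by SMAD proteins and retinoid receptors. MEIS1 is best known for its role in blood stem cells and leukaemia, and in the thymus it has been studied for the upkeep of the postnatal epithelium.

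The arrays were of similar brightness, with between 58.6% and 63.6% of probe spots well above background, and no spot was saturated. Meis1-CKO 1 and control 1 shared a slide and a scan (slide 1), as did Meis1-CKO 2 and control 2 (slide 2). Meis1-CKO 2 stood apart: over 24254 probes its levels had correlations of 0.850 to 0.880 with the other arrays, which had correlations of 0.928 to 0.938 among themselves. The epithelial markers Epcam, Krt5 and Krt8 were well above background on all 4 arrays. Epcam read 4.47 and 4.11 in Meis1-CKO 1 and 2 and 4.24 and 4.72 in control 1 and 2. Foxn1, a further TEC marker, read 0.85 and -0.69 in Meis1-CKO 1 and 2, against 1.02 and 1.21 in control 1 and 2. Levels are log2 signals relative to the 75th percentile of each array. All 12 markers of TECs were tested, and their summed signal was 482 and 235 times the 75th percentile in Meis1-CKO 1 and 2, against 545 and 461 in control 1 and 2. Such a sum is weighted to the brightest genes. The median level of the 12 was 3.75 and 4.05 in Meis1-CKO 1 and 2, against 3.68 and 4.66 in control 1 and 2. The mean level was lower in Meis1-CKO for 10 of the 12 and higher for 2. It was lower for 7834 of all 14277 genes with a symbol. Of 12 myeloid and dendritic markers 11 were tested (C1qa was not), and their sum was 29.8 and 130 in the Meis1-CKO pools, against 27.9 and 35.3 in the control pools. The mean level was higher in Meis1-CKO for 8 of these 11 and lower for 3, and not every marker was highest in Meis1-CKO 2. Ptprc, which encodes the CD45 antigen that the sort selected against, read -0.75 and 5.55 in Meis1-CKO 1 and 2, against 1.44 and 1.19 in control 1 and 2. Of 12 thymocyte and T cell markers 11 were tested (Rag2 was not), with sums of 8.65 and 45.8 in the Meis1-CKO pools, against 56.1 and 24.6 in the control pools. Of 8 mesenchymal markers 5 were tested (Pdgfra, Lum and Twist1 were not), with sums of 11.9 and 7.86 in the Meis1-CKO pools, against 15.3 and 11.3 in the control pools. Thy1 is in both the thymocyte and the mesenchymal list. It read 1.33 and 2.43 in Meis1-CKO 1 and 2, against 2.48 and 2.55 in control 1 and 2. Meis1-CKO 2 thus had the lowest summed signal of the epithelial and mesenchymal lists and the highest of the myeloid list. By the median level of the epithelial list it was not the lowest. The part of this cell make-up in the values below was not tested, and in bulk samples fewer cells of a type and less RNA per cell cannot be told apart.

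**Figure D1:**
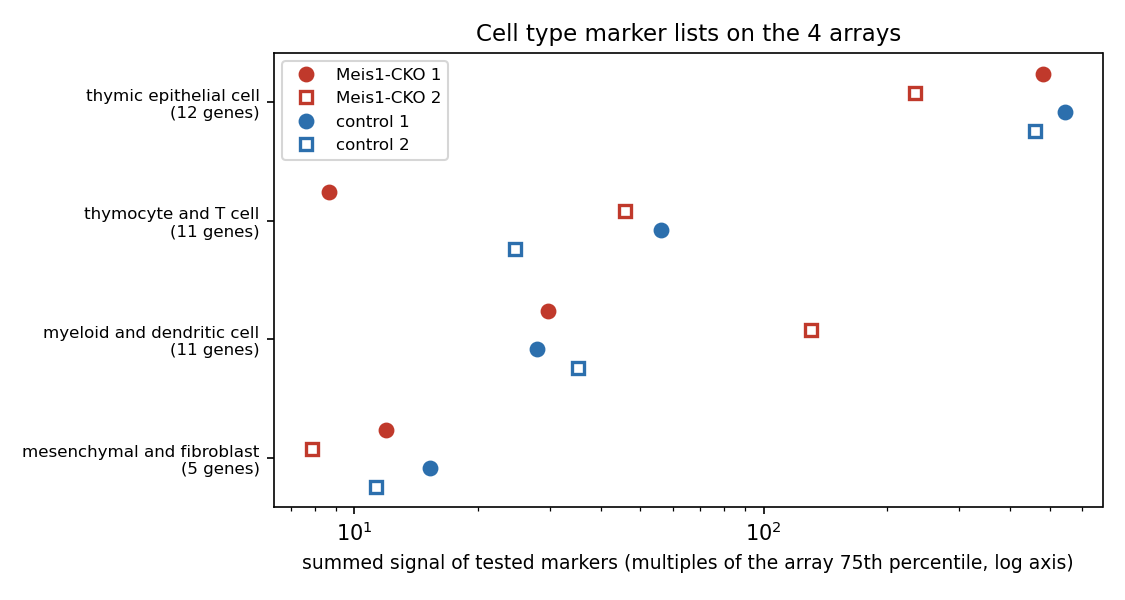
Summed signal of the tested markers of each cell type list (rows) on the 4 arrays, in multiples of the array's 75th percentile on a log axis. Red marks Meis1-CKO and blue control pools, circles replicate 1 and squares replicate 2. Meis1-CKO 2 has the lowest sum for TEC markers (235) and the highest for myeloid and dendritic markers (130).

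The probes were oligonucleotides of 60 bases, each present as 1 spot per array. Positions are given as in the scanner files (mm9), and probes of a gene are numbered from the brightest. Meis1 had probe 1 at chr11:18911247-18911306 and probe 2 at chr11:18781206-18781265, both on the minus strand and 130 kb apart, so that probe 1 lies upstream of probe 2 in the direction of transcription. The sequences of 4 probes are shown, to show what was hybridised for at least 1 gene of each family. Each has at least 1 forward reading frame without a stop codon, and the letters are all in lower case as no part is singled out.
Meis1 probe 1 (minus strand): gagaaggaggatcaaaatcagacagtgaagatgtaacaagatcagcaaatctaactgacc
Meis3 probe 1 (plus strand): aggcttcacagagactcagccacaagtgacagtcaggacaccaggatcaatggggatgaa
Pknox2 probe 2 (minus strand): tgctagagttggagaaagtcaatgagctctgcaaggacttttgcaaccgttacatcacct
Tgif1 probe 1 (minus strand): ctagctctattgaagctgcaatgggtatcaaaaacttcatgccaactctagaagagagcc
The Meis3 probe, at chr7:16770024-16770812, spans 789 bases of genome with its 60 bases, so its letters are not contiguous there. Pknox2 probe 2 lay at chr9:36731264-36731323 and Tgif1 probe 1 at chr17:71194438-71194497. No exon annotation on mm9 was used here, so whether a probe lies in a coding exon or a UTR is not stated. The G and C content of the 12 probes was 35.0% to 51.7% (median 41.7%), against a median of 40.0% over all probes. No run of letters shared by probes of different members was longer than 8 bases.

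The first question was whether any member differed between Meis1-CKO and control TECs. Of the 12 probes, 11 (6 genes) exceeded background clearly in both pools of one genotype or of both and were tested, 10 of them with such a signal on all 4 arrays. The exception was Pknox1, whose only probe was not well above background on any array. None of the 11 passed limma's test at an adjusted p under 0.05, and 0% of the 24254 probes tested did. At an unadjusted p under 0.05 limma called 0 of the 11, against 2.91% (706) of all probes. The lowest unadjusted limma p, 0.0921, was that of Meis1 probe 2, which was well above background in the control pools only. Among the 10 probes above background on all 4 arrays the lowest was 0.181, for Tgif2. The difference, log2 Meis1-CKO minus log2 control, was below 0 for 10 probes and above 0 for Tgif1, with a median of -0.77, against -0.03 over all probes tested. Both Meis1-CKO arrays read below both control arrays for 3 of the 11 (14.0% of all probes did) and above both for 1 (12.1% of all probes). One of the 3, Meis1 probe 2, was tested through its control signals alone, and it enters these counts and the ones by slide. Of the 10 probes above background on all 4 arrays, 0 were separated by 2-fold or more in either direction. Among all 20818 probes above background on all 4 arrays, 811 were. Over all 24254 probes tested, dim ones included, the shares were 3.82% lower and 3.51% higher. The 11 probes measure 6 genes and share arrays, so they are not independent of each other.

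**Figure D2:**
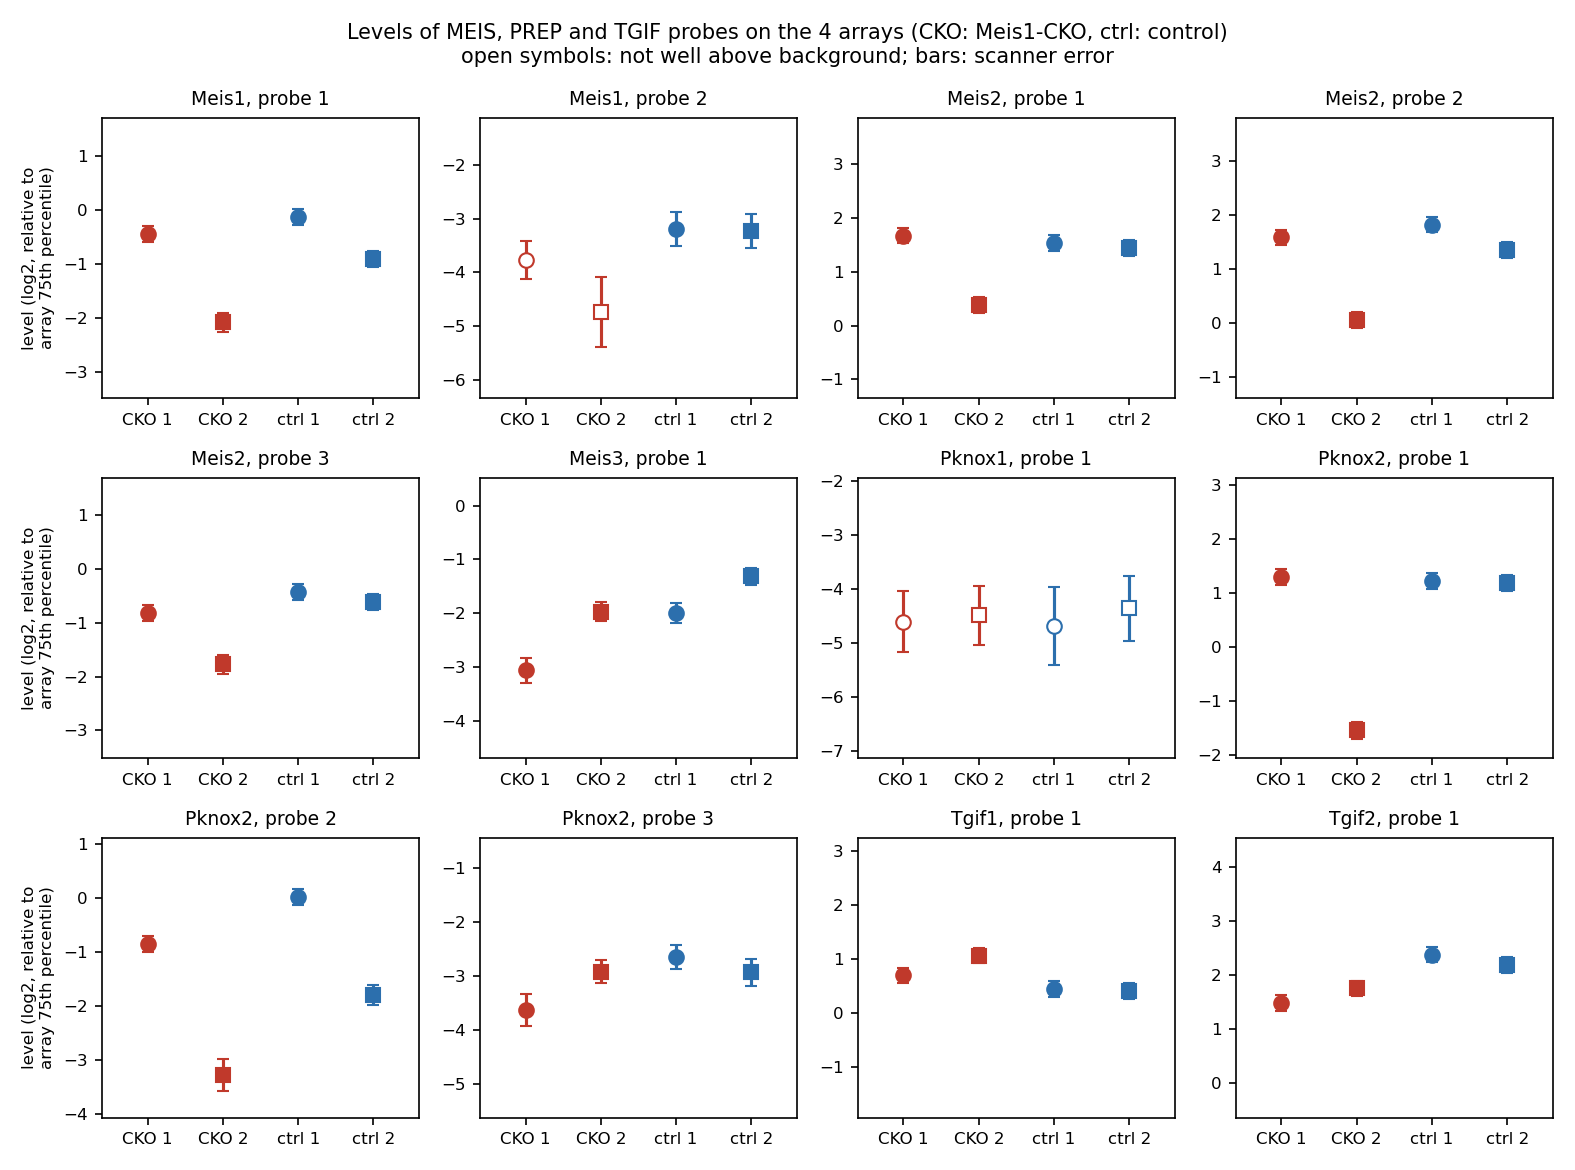
Levels of the 12 probes in Meis1-CKO 1 and 2 (red) and control 1 and 2 (blue), as log2 signal relative to the array's 75th percentile, with bars for the scanner software's own error and open symbols where the signal was not well above background. All panels span the same range. Meis1, Meis2 and Pknox2 probes 1 and 2 have their lowest reading in Meis1-CKO 2, whereas Tgif1 is above and Tgif2 below the controls in both Meis1-CKO pools.

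Meis1, the gene deleted, was read first. Probe 1 read -0.44 and -2.08 in Meis1-CKO 1 and 2, against -0.12 and -0.91 in control 1 and 2. The groups overlapped, since Meis1-CKO 1 read above control 2, and the lowest value was that of Meis1-CKO 2. Its log2 difference was -0.75 (SE 0.69, 95% interval -2.45 to 0.96, limma adjusted p = 1.00). It was -0.32 within slide 1 and -1.17 within slide 2, where the scanner software's own error of a difference came to 0.21 and 0.23, but without Meis1-CKO 2 it was 0.078. Before scaling, the signal of this probe was 36.0 ± 4.37 intensity units in Meis1-CKO 2 and 72.8 ± 7.78 in control 2, where the error is the scanner's and not a spread between pools. Among all tested probes, 10.7% had a lower difference. Probe 2 was dim, at -3.77 and -4.74 in Meis1-CKO 1 and 2, against -3.19 and -3.23 in control 1 and 2. It passed the background limit only in the 2 control pools, and the groups did not overlap. Taken against the lowest signals well above background on the Meis1-CKO arrays, the bound on processed signals came to 1.46-fold lower there. The scanner errors of its differences within slides 1 and 2 were 0.47 and 0.73 log2 units, so this bound is not a firm minimum. The fitted log2 difference was -1.04 (SE 0.52, 95% interval -2.32 to 0.23, limma adjusted p = 1.00), a value against signals not well above background, so neither its size nor the separation is read further. With another background correction (normexp with an offset of 50) the differences of probes 1 and 2 were -0.39 and -0.19. No source used here gives the deleted part of the gene, so neither probe checks the genotype labels, and both Meis1-CKO pools still had signal at probe 1.

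Further features of the array lay between the Meis1 probes on the same strand, and they carried other names. AK035381, at chr11:18822096-18822155, read -2.36 and -5.83 in Meis1-CKO 1 and 2, against -2.31 and -3.50 in control 1 and 2, and was above background on 2 arrays. 2610001A08Rik, at chr11:18905823-18905882, read -5.50 and -4.19 in Meis1-CKO 1 and 2, against -2.37 and -3.97 in control 1 and 2, and was above background on 1 array. Neither was tested, and no order can be read from such dim signals.

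Meis2 encodes the closest relative of MEIS1 and had 3 probes, all well above background on every array. Probes 1 (chr2:115689130-115689189) and 2 (chr2:115689066-115689125) lie 4 bases apart on the minus strand, and probe 3 (chr2:115821828-115821887, named from a cDNA clone) lies 133 kb upstream. Probe 1 read 1.67 and 0.38 in Meis1-CKO 1 and 2, against 1.53 and 1.44 in control 1 and 2. Probe 2 read 1.58 and 0.048 in Meis1-CKO 1 and 2, against 1.82 and 1.35 in control 1 and 2. In both neighbouring probes Meis1-CKO 2 was more than 1 log2 unit below every other pool and Meis1-CKO 1 lay above 1 or both of the controls. Probe 3 read -0.82 and -1.77 in the Meis1-CKO pools, against -0.44 and -0.62 in the control pools, and did not overlap. The log2 differences were -0.46 (SE 0.58), -0.77 (SE 0.64) and -0.77 (SE 0.52) for probes 1 to 3, each with a limma adjusted p of 1.00, and the 95% interval of probe 1 ran from -1.89 to 0.96. Within slide 1 they were 0.13, -0.24 and -0.39, and within slide 2 -1.06, -1.30 and -1.16.

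Meis3, the remaining MEIS gene, differed from Meis1 and Meis2 in which pool read low. It read -3.06 and -1.968 in Meis1-CKO 1 and 2, against -1.996 and -1.31 in control 1 and 2. The lowest value was in Meis1-CKO 1, and Meis1-CKO 2 and control 1 read about the same, so the groups overlapped. The log2 difference was -0.86 (SE 0.57, limma adjusted p = 1.00), with -1.06 within slide 1 and -0.65 within slide 2. Meis3 was the only member with a difference past 2-fold within slide 1, where 15.1% of all probes had one. That difference rests on a low signal of 13.1 intensity units in Meis1-CKO 1, and under normexp the log2 difference over both slides was -0.33.

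The PREP genes were unequally measured. Pknox1, at chr17:31744266-31744325 on the plus strand, encodes the PREP factor known as the general partner of PBX proteins, and its probe read -4.61 and -4.49 in Meis1-CKO 1 and 2, against -4.69 and -4.36 in control 1 and 2. These are signals of 4.46 and 6.77 intensity units in the Meis1-CKO pools, against 3.61 and 6.67 in the control pools, with scanner errors of 1.74 to 2.78, so no difference was detectable at this brightness and no statement on the gene's expression can be made. Pknox2, the gene of the second PREP factor, had 3 probes, all above background on every array and unlike each other in pattern. Probe 1 (chr9:36698752-36698811) read 1.30 and -1.54 in Meis1-CKO 1 and 2, against 1.23 and 1.19 in control 1 and 2. It had the lowest difference of all member probes, -1.33 (SE 0.94, 95% interval -3.67 to 1.00, limma adjusted p = 1.00), and Meis1-CKO 2 was the only low pool: the value was 0.069 within slide 1 and -2.73 within slide 2. Probe 2, 32.5 kb upstream, read -0.86 and -3.28 in the Meis1-CKO pools, against 0.015 and -1.80 in the control pools. Here the controls themselves differed by 1.82 log2 units, and the groups overlapped, with a log2 difference of -1.17 (SE 0.99, limma adjusted p = 1.00). Within slides 1 and 2 it was -0.87 and -1.48. Probe 3 (chr9:36730818-36730877, named from a cDNA clone) starts 446 bases from probe 2 and read -3.63 and -2.92 in the Meis1-CKO pools, against -2.66 and -2.94 in the control pools. It was dim, with a difference of -0.48 (SE 0.48), and Meis1-CKO 2 read like the controls (-0.97 within slide 1, 0.013 within slide 2). Probes 1 and 2 were thus lowest in Meis1-CKO 2 and probe 3 in Meis1-CKO 1.

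The TGIF genes gave readings close together within each group, and in neither did the groups overlap. For the upstream Meis2 probe, well above background on every array, the groups did not overlap either. Such a separation was common: 14.0% of all probes tested were lower in this way and 12.1% higher. It does not by itself set the TGIF genes apart. Tgif1 read 0.69 and 1.06 in Meis1-CKO 1 and 2, against 0.45 and 0.40 in control 1 and 2. Its log2 difference was 0.45 (SE 0.44, 95% interval -0.64 to 1.55, limma adjusted p = 1.00), with 0.25 within slide 1 and 0.66 within slide 2. Tgif2, at chr2:156681159-156681218 on the plus strand, read 1.48 and 1.75 in Meis1-CKO 1 and 2, against 2.38 and 2.19 in control 1 and 2. The log2 difference was -0.67 (SE 0.44, 95% interval -1.76 to 0.42, limma adjusted p = 1.00), with -0.90 within slide 1 and -0.44 within slide 2. For Tgif1 the pools of a group differed by 0.37 log2 units in Meis1-CKO and 0.050 in control. For Tgif2 they differed by 0.28 in Meis1-CKO and 0.19 in control. Both differences between the groups were larger, but how many of all probes show the same was not counted. Neither passed the test, and both intervals contain 0.

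**Figure D3:**
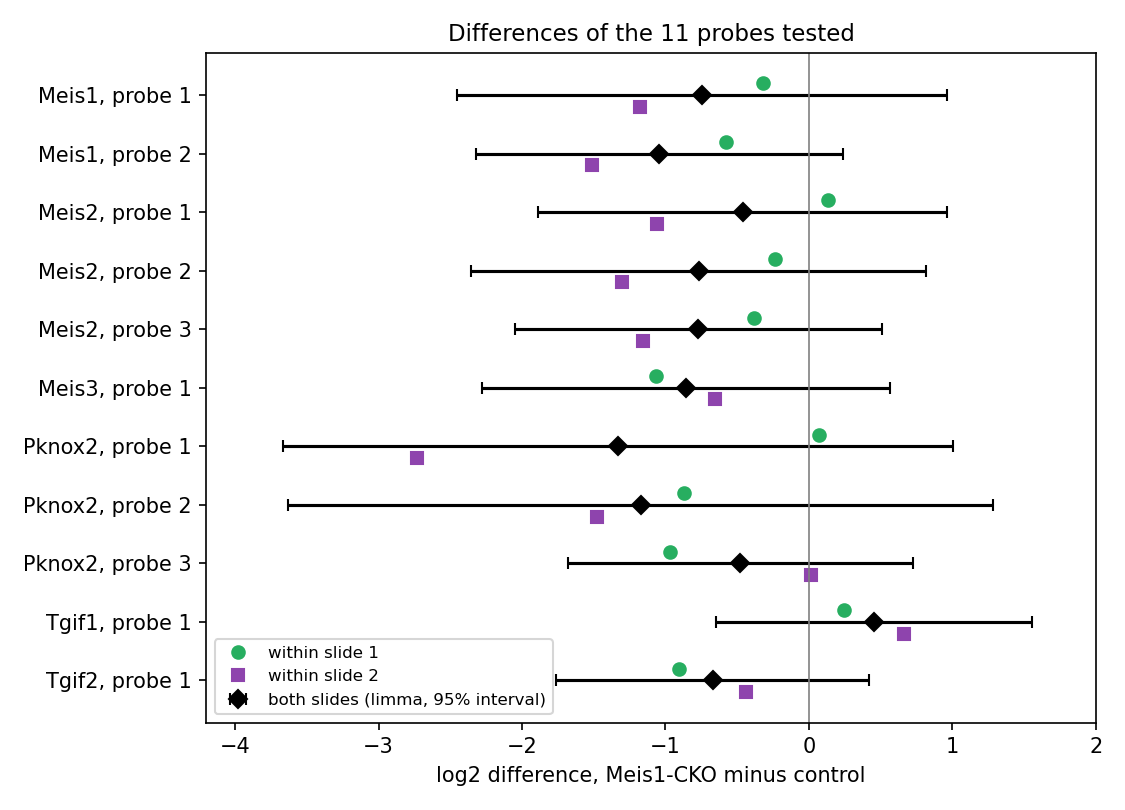
Log2 differences of Meis1-CKO minus control for the 11 probes tested, with limma's 95% interval over both slides (black diamonds) and the values within slide 1 (green circles) and slide 2 (purple squares). Every interval contains 0, and the within-slide values of Pknox2 probe 1 lie furthest apart (0.069 and -2.73).

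The slides weighed differently. Within slide 2, 7 of the 11 probes differed by 2-fold or more, against 27.7% of all probes, and within slide 1 only Meis3 did. The 7 were both Meis1 probes, all Meis2 probes and Pknox2 probes 1 and 2, and probes of the same gene are not independent. The median difference of the 11 was -0.39 within slide 1 and -1.16 within slide 2, against 0.02 and -0.10 over all probes. The difference was below 0 within both slides for 7 of the 11, against 25.6% of all probes: both Meis1 probes, Meis2 probes 2 and 3, Meis3, Pknox2 probe 2 and Tgif2. Meis1-CKO 2 held the lowest of the 4 readings for 7 of the 11 probes, against 35.6% of all probes. These were the same 7 that differed by 2-fold or more within slide 2, so this count is not a separate result. Without Meis1-CKO 2, only 6 of the 11 differences were below 0, and those of Meis1 probe 1 (0.078), Meis2 probe 1 (0.18) and Pknox2 probes 1 (0.087) and 2 (0.037) turned positive. Meis2 probe 2 then stood at -0.0012, Meis1 probe 2 at -0.56 and Meis3 at -1.40, while Tgif1 was at 0.27 and Tgif2 at -0.81. Leaving out any other array turned no sign.

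**Figure D4:**
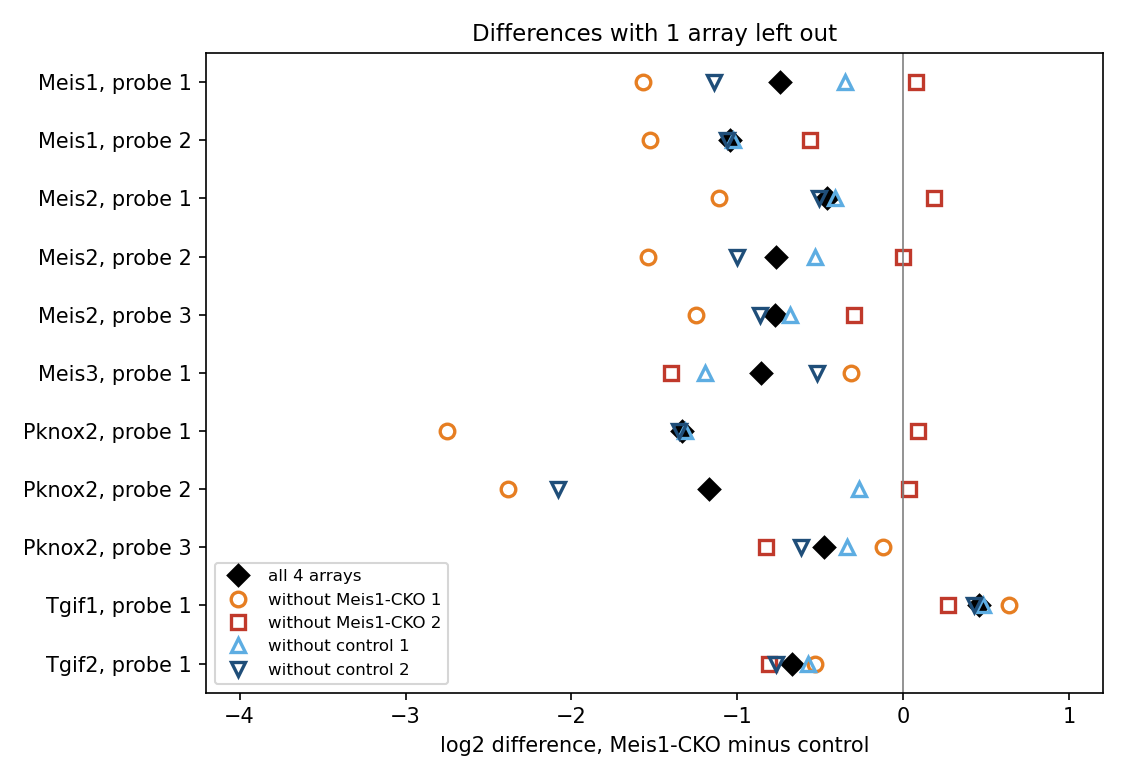
Log2 differences of Meis1-CKO minus control for the 11 probes tested, over all 4 arrays (black diamonds) and with each array left out in turn (open symbols). Without Meis1-CKO 2 (red squares) the differences of Meis1 probe 1, Meis2 probe 1 and Pknox2 probes 1 and 2 lie above 0, at 0.037 to 0.18.

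The other genes of the class and its pathways were read from lists, 1 probe per gene. None of their tested genes passed limma's test in either direction, and dim genes were left out as before. Of 11 other TALE genes 7 were tested, with a median log2 difference of -0.28, against -0.05 over all 14277 genes with a symbol. Irx2, Irx3, Irx5 and Irx6 were too dim to test. Pbx4, a PBX partner gene, was at 2.47 (SE 0.82), above background on 1 control array, Mkx, an atypical TALE gene known from tendon, at -0.80 (SE 0.55), and the Iroquois gene Irx4 at -1.41 (SE 1.05), above background on 1 Meis1-CKO array. Mkx read 0.43 and 0.24 in the Meis1-CKO pools, against 1.70 and 0.56 in the control pools. Irx4 read -2.17 and -4.68 in Meis1-CKO 1 and 2, against -3.05 and -0.99 in control 1 and 2, and the value of Meis1-CKO 2 was not well above background. Of 39 HOX genes, whose proteins join PBX and MEIS on DNA, 38 were on the array and 15 were tested, with a median of 0.034. Hoxa11 read -1.50 and -1.98 in Meis1-CKO 1 and 2, against -4.22 and -5.50 in the controls, where it was not well above background, and was at least 3.23-fold higher. Hoxd11 was at least 1.58-fold higher by the same measure, at -2.12 and -3.42 in the Meis1-CKO pools against -4.29 and -5.73 in the control pools, but Meis1-CKO 2 lay close to the lowest signals above background on the control arrays (-3.45 and -3.42). Hoxa2 was above background on 1 Meis1-CKO array only and read -3.43 and -5.63 in the Meis1-CKO pools, against -1.66 and -2.66 in the control pools. These HOX genes were picked from their list for a small limma p, and Hoxa11 and Hoxd11 were tested through their Meis1-CKO signals alone. How many of all probes have such a bound was not counted.

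Genes described elsewhere as MEIS1 targets, mostly in blood and heart cells, did not share a direction. Of 14 genes 12 were tested, 4 with a difference above 0 and 8 below, with a median of -0.065. The chemokine gene Ccl3 read -2.85 and 2.07 in Meis1-CKO 1 and 2, against -5.49 and -2.61 in control 1 and 2, and was not well above background in control 1. The receptor tyrosine kinase gene Flt3 was at least 4.10-fold higher over both pools, a bound that rests on Meis1-CKO 2, since Meis1-CKO 1 read below the lowest signals above background on the control arrays. Flt3, too, was picked for a small limma p and tested through its Meis1-CKO signals alone. Ccl3 and Flt3 are also expressed by myeloid and dendritic cells, whose summed marker signal, though not every marker, was highest in Meis1-CKO 2. Flt3 read -3.55 and 0.76 in the Meis1-CKO pools, against -5.02 and -3.47 in the control pools. The part of those cells was not tested. Cdkn1a, which encodes the cell cycle inhibitor p21, was at 0.85 (SE 0.56), with 0.13 within slide 1 and 1.57 within slide 2.

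For the TGIF genes, 11 of 12 genes of SMAD and corepressor partners were tested, 6 with a difference above 0 and 5 below (median 0.066). Those with the smallest p were Sin3a, a corepressor scaffold, at 0.39 (SE 0.45), the histone deacetylase gene Hdac2 at -0.37 (SE 0.49) and Smad4 at 0.27 (SE 0.45). Of 10 genes known to be induced by TGF-beta, 8 were tested, with 4 above 0 and 4 below (median 0.18). The matrix gene Ltbp2 was at -0.94 (SE 0.55) and Skil, which encodes a SMAD corepressor, at 0.81 (SE 0.52). In neither did the groups overlap, but both were picked from their list for a small limma p. Of all probes tested, 14.0% were separated as lower and 12.1% as higher.

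The genes whose pattern over the 4 arrays was nearest to that of Meis1 probe 1 and of Meis2 probe 1 were looked up among 18882 probes with a symbol above background on every array. The measure was the root mean square distance of log2 levels after each probe's mean was removed, a description over 4 arrays with no test. Nearest to Meis1 were Map2, the gene of a microtubule-associated protein, at a distance of 0.018, Ddc, which encodes an amino acid decarboxylase, at 0.045, and the proteoglycan gene Vcan at 0.050. Vcan read -1.69 and -3.45 in the Meis1-CKO pools, against -1.39 and -2.15 in the control pools. Nearest to Meis2 were Mgll, a lipase gene, at 0.017, the phosphatase gene Dusp4 at 0.018 and the histone methyltransferase gene Kmt2c at 0.020. Dusp4 read 5.52 and 4.23 in Meis1-CKO 1 and 2, against 5.35 and 5.25 in control 1 and 2. Each of these has its lowest reading in Meis1-CKO 2, which follows from how they were picked, as both Meis probes read lowest there.

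The core letters TGACAG, which MEIS and TGIF proteins are known to bind, were looked for on both strands of RefSeq promoters on GRCm38.p6 (250 bases before to 50 after a start). Windows were found for 5 of the 7 genes, 9 in all, of which 5 belong to Tgif1. The letters occurred in 2 of the 9, both of Tgif1, and in 19.2% of all 32851 windows. These are matches of letters and not sites.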

How the data were processed

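The deposited scanner files give each spot as a linear intensity, which per the file headers was made with Agilent Feature Extraction 9.5.3.1: a fitted spatial surface, not the local background, was subtracted, multiplicative detrending followed and surrogates stood in for low values, with no scaling between arrays. The deposited value table is in log2, and no source used here gives how it was made. They matched the scaled scanner values (slope and correlation of array differences both 1.00), and every row was centred on its median over the arrays. Its column medians were -0.06 and -0.12 for Meis1-CKO 1 and 2 and 0.04 and 0.09 for control 1 and 2.

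The level used is log2 of the processed signal after scaling by the 75th percentile of an array's non-control spots. Control spots (1639 of 45018) and 63 to 78 outlier spots per array were left out, and spots of a probe were averaged. Tested probes had the scanner's well-above-background call in both pools of one genotype or of both. The 4 arrays were compared with limma 3.58.1 (lmFit, eBayes, R 4.3.3) without a block, with Benjamini-Hochberg adjustment over all 24254 probes. The residual degrees of freedom numbered 2 (with eBayes moderation 5.72), and the number of arrays limits the precision. The fit was tested on simulated data. The design text speaks of 2 independent experiments but does not tie numbered pools to them.

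A fold against a group in which a probe was not well above background is a bound: per array, the dim probe was given the lowest signal called above background, or its own where that was higher. Symbols were updated by RefSeq accession for 26690 probes. The named genes are all 7 members, up to 3 genes per list with the smallest p, the 3 nearest in pattern to Meis1 and Meis2, and 5 markers (Epcam, Krt5, Krt8, Foxn1 and Ptprc). One gene named by this rule is not reported here. The B cell, endothelial and erythroid lists had 3 of 5, 2 of 6 and 3 of 5 genes tested, with median log2 differences of 0.09, 0.61 and -1.03. The members and lists were chosen with earlier results of these data known. As a check of pairing, the deviations from group means of arrays with one number correlated at 0.14 across probes. Alternatives were other background correction, normalization, filters, the deposited table, 1 probe per gene, a replicate block, array weights and each array left out.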

Additional observations from a re-analysis of the deposited data

How the results depend on the processing

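None of the 11 member probes, none of the pathway genes and 0 of all probes passed limma's adjusted threshold under any of the 12 alternatives, with 280 to 3650 probes at an unadjusted p under 0.05. Over these alternatives the lowest adjusted p of a member was 0.0860, for Pknox2 probe 1 without Meis1-CKO 1 (range 0.0860 to 1.00). Signs turned only without Meis1-CKO replicate 2, to 0.078 for Meis1 probe 1, 0.18 for Meis2 probe 1, 0.087 for Pknox2 probe 1 and 0.037 for Pknox2 probe 2. With 1 array left out, the range was -1.57 to 0.078 for Meis1 probe 1, -1.53 to -0.56 for Meis1 probe 2, -1.11 to 0.18 for Meis2 probe 1, -2.75 to 0.087 for Pknox2 probe 1 and -2.38 to 0.037 for Pknox2 probe 2. A group left with a single array takes its spread from the other group, and the cause was not tested. The replicate block (slide and number coincide) left the differences as they were (Meis1 probe 1 at -0.75, limma adjusted p = 1.00) and called 0 probes, with 1002 at an unadjusted p under 0.05. Whether the numbers pair the pools is not known.

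Separated probes with at least a 2-fold difference numbered 1779, and 157 under normexp, 811 with only probes above background on all 4 arrays, 3506 with no filter, and 2386 to 6665 with 1 array left out. Of them 47.9% were higher in Meis1-CKO, and 70.7% under normexp. Fewer arrays make separation easier, and the filters change how many probes enter. Under normexp the members' differences ran from -0.90 to 0.37, and the cause was not tested. Array weights could not rank the arrays, since with 2 in a group both get the same weight. Dim signals limit Meis1 probe 2, Pknox1 and Pknox2 probe 3. Low readings in Meis1-CKO 1 (13.1 intensity units) and Meis1-CKO 2 (15.7) limit Meis3 and Pknox2 probe 2, whose differences were -0.33 and -0.43 under normexp.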
